A study of Mus musculus with 191 samples.

Results

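The genes described here encode the proteins of the cytosolic ribosome in mouse tissues. A gene was counted when its symbol began with Rpl or Rps and a digit, or was Rplp0, Rplp1, Rplp2 or Rpsa, when it was neither a pseudogene name nor an Rps6k kinase, and when its mean value reached 10 in at least 1 of 5 tissue tables. Of 21205 genes in all tables, 86 fitted the name and 84 reached the mean, 50 named Rpl and 34 named Rps. The other 2, Rpl39l and Rpl6l, stayed under 10 in every table. The skin table kept all 84, gut and lung 82 each, bone marrow 81 and liver 80, and 80 were kept in all 5 tissues. The rule uses names and mean values and no measured difference, but it was set with earlier results of these data known.

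The study took bulk RNA around the day from mice treated to deplete neutrophils, from mice with a clock gene deleted in them and from controls, in 191 libraries of 1 mouse each, going by the labels. Bone marrow, gut, liver and lung came from wild-type C57BL/6 mice given either anti-Ly6G antibody (clone 1A8) or control IgG at 3 µg/g body weight on 2 consecutive days. Each tissue had 18 libraries per treatment, 3 at each zeitgeber time (ZT, counted in hours from when the lights came on) of 1, 5, 9, 13, 17 and 21. Housing was either the normal facility or cabinets whose light cycle was turned by 12 h, and no label gives the housing of a given mouse. Ear skin came from Mrp8CRE; iDTR mice given diphtheria toxin (16 libraries), untreated Mrp8CRE; Bmal1-flox mice (15 libraries), and mice labelled as wild-type C57BL/6 controls given the same toxin at 10 µg/kg for 2 days (16 libraries). In skin each group had 1 mouse at each of 16 times, except that Bmal1-flox had none at ZT 16. Mrp8CRE drives recombination in the myeloid lineage, mainly in neutrophils; the iDTR allele makes recombined cells sensitive to the toxin, and the Bmal1-flox allele removes the clock gene Arntl from them. No strain was given for the iDTR and Bmal1-flox mice and no age for any mouse.

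Ribosomal proteins build the small (40S) and large (60S) subunits of the ribosome, and their mRNAs are among the most abundant in any cell. Nearly all of these mRNAs start with a C followed by a run of pyrimidines, the 5′ terminal oligopyrimidine (TOP) motif, through which the kinase mTORC1 and the RNA-binding protein Larp1 control their translation together. In mouse liver, ribosome production and the translation of these mRNAs are known to follow the feeding cycle.

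Recovered depth ran from 7.68 to 30.9 (in units of 1e6 reads) per library. Each tissue's own markers were high in it: epidermal markers summed to medians of 29407 or more in the skin groups, liver markers to 89070 or more in liver, lung markers to 59490 or more in lung, marrow markers to 9496 or more in marrow and gut epithelial markers to 1081 or more in gut. The anti-Ly6G gut libraries 1 and 6 held seminal vesicle, prostate or pancreas transcripts, summed to 33190 and 535 against a median of 319 in their group, and Bmal1-flox skin library 1 held liver transcripts at 1440 against a median of 2.31. Some labels of skin and lung went against the genes that check them. Gt(ROSA)26Sor, the locus at which the iDTR allele sits, was at 0.655 ± 0.319 in iDTR skin, 26.2 ± 2.44 in Bmal1-flox skin and 0.870 ± 0.401 in skin labelled control (SD, n = 16, 15 and 16), so its level in the libraries labelled control was that of the iDTR skin and not that of the other wild-type tissues, where it ran from 5.09 to 39.3. In lung the clock gene Dbp had medians of 240 with anti-Ly6G and 122 with IgG at labelled ZT 1, whereas in liver it had medians of 0.494 and 0.338 at ZT 1, and the 3 anti-Ly6G lungs labelled ZT 5 had 6.34, 6.63 and 42.0 of Arntl. Both tissues are given as labelled. Ly6g, the antibody's target, averaged 118 ± 18.6 in anti-Ly6G marrow and 104 ± 10.6 in IgG marrow (SD, n = 18 each), so marrow showed no loss of this mRNA, and Arntl averaged 40.6 ± 12.5 in Bmal1-flox skin and 39.6 ± 12.3 in skin labelled control.

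The sequences around the RefSeq start show how long the pyrimidine run there is in each member. RefSeq promoter rows on GRCm38.p6 matched 64 of the 84 members, in 76 rows. The lines give 30 bases around the annotated start, 6 before it and 24 from it, 5′ to 3′ on the gene's strand, with the longest unbroken run of C and T in capitals. The first 8 are core proteins with long runs, and the other 7 are members that stood out in liver, skin or level per kb:
Rps6: tcgggCCTCTTTTTCgtgacgcctcccagg
Rpl28: gtgTCTCTCTTTCCgtctccggccgccata
Rplp2: gTCTTCCTTTCgccgccggacgccgccgag
Rps18: tccgCTCTCTCTTCCacaggaggcctacac
Rpl13a: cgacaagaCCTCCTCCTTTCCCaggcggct
Rpl18: caggccgCTCTTTCCCCgcccactccggcg
Rpl35: CCTTTCCTCTTTCTCTCgaaccaggctgct
Rpl7a: TCTTTCTTTCTCCagcagccgagcaagatg
Rpl7l1: cgcaagcgcagtagCTgaagcaccggaaag
Rpl36al: cgctcaggttcagttccgaCTTCCgctctg
Rps27l: cccgccgCCTCTatcccggaagttgctgag
Rps2: agatctcgcgCTTCTTggagcactataaat
Rpl41: cggCTCggaagtgacgacaccgagcacgcc
Rps3a1: gaagggcgaaagagcaagggTCacgtagac
Rplp0: tttcgaggaccgcctggTTCTCCTataaaa
The windows lie at Rps6 chr4:86857344-86857373 (minus strand), Rpl28 chr7:4792959-4792988 (plus strand), Rplp2 chr7:141447645-141447674 (plus strand), Rps18 chr17:33955642-33955671 (minus strand), Rpl13a chr7:45128722-45128751 (minus strand), Rpl18 chr7:45718065-45718094 (plus strand), Rpl35 chr2:39005108-39005137 (minus strand) and Rpl7a chr2:26910801-26910830 (plus strand), and at Rpl7l1 chr17:46782633-46782662 (minus strand), Rpl36al chr12:69184044-69184073 (minus strand), Rps27l chr9:66946080-66946109 (plus strand), Rps2 chr17:24720057-24720086 (plus strand), Rpl41 chr10:128549145-128549174 (minus strand), Rps3a1 chr3:86142645-86142674 (minus strand) and Rplp0 chr5:115559461-115559490 (plus strand). Rpl35 has the longest run shown, of 17 bases, Rpl13a has 14 and Rpl7a 13, while Rpl41 has 3 and Rpl7l1 and Rps3a1 have 2. Rps27l has another annotated start with a run of 4. Over all matched rows the longest run had a median of 6 bases, against 4 in 32775 rows of other genes, and 31.6% of member rows had a run of at least 8, against 10.2% of the others. The letters CTTTC, part of such a run and searched on the gene's strand, stood in this window in 19.7% of member rows and 3.65% of other rows. The letters CCGGAAG, the core of Ets-type sites, searched on both strands of 300 bases around the start, stood in 34.2% and 8.8%. A match is a description of the letters. Annotated starts can miss the used start, and in 4 of the 76 rows, that of Rpl27 among them, the window lay wholly before the gene as the GENCODE annotation places it, so a short run does not show that an mRNA lacks the motif.

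The sum of all members' values took between 1.27% and 5.00% of the table total, by group median. It was lowest in liver, with medians of 12872 for anti-Ly6G and 12792 for IgG, and highest in skin, with medians of 51274 in iDTR, 48184 in Bmal1-flox and 48217 in labelled control. Bone marrow had medians of 44515 with anti-Ly6G and 46352 with IgG, gut 47509 and 45117, and lung 29851 and 30277. Values of every library sum to about 1e6, but each table was normalized separately, so these levels across tissues carry no test. In bulk tissue fewer cells of a type and less RNA per cell cannot be told apart.

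**Figure D1:**
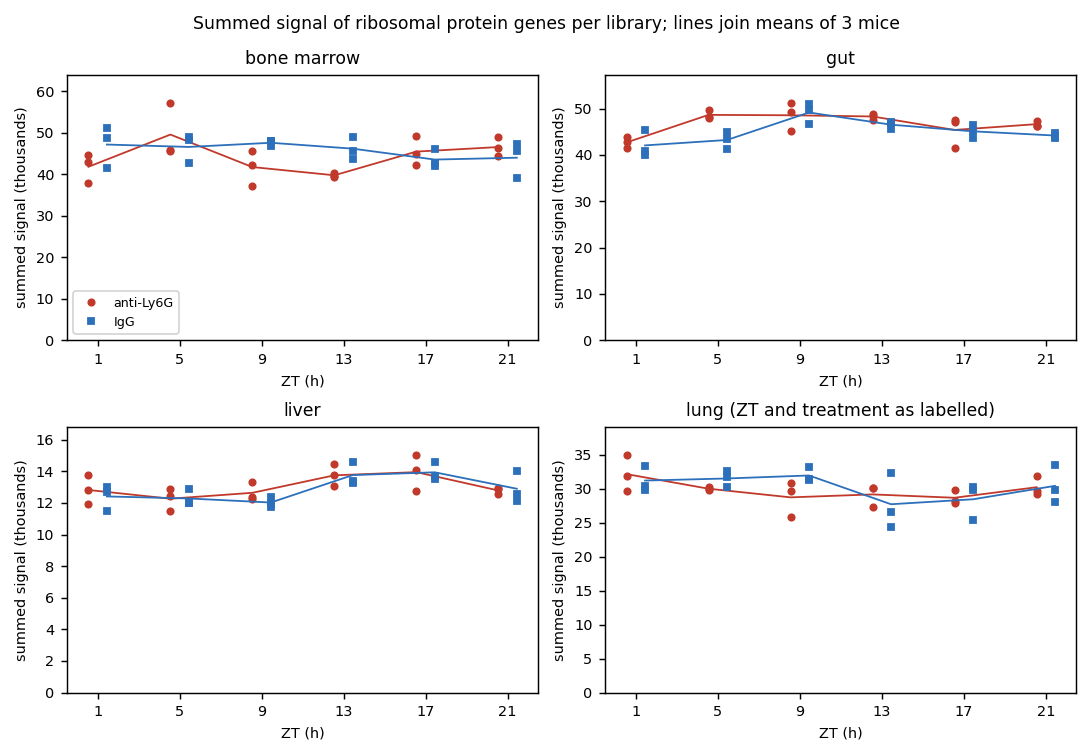
Sum of the values of all member genes in each library (vertical axis, normalized units divided by 1000) by labelled ZT in hours, for the 4 antibody tissues, with anti-Ly6G in red left of IgG in blue; each point is a mouse and lines join the means of 3 mice. In marrow at ZT 13 the anti-Ly6G points (39366 to 40228) lie under the IgG points (43661 to 49034), and in gut at ZT 5 they lie above them (47998 to 49712 over 41345 to 44967).

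Per kilobase of annotated exon, Rplp1, a protein of the acidic stalk that recruits translation factors, had the highest level in every tissue. Skin had 1963 ± 194 per kb (SD, n = 47 libraries), gut 1806 ± 132, bone marrow 1583 ± 177, lung 1281 ± 122 and liver 497 ± 50.5 (SD, n = 36 each). Rps3a1, of the small subunit, came next at 1339 per kb in marrow, 1139 in gut, 315 in liver and 826 in lung, and was the third in skin at 1205, behind Rplp0, the stalk's base, at 1448. The lowest levels were held by paralogs, by a gene name outside the core ribosome and by a few core proteins. Rpl7l1, a paralog of Rpl7 that acts in the assembly of ribosomes, lay between 18.6 and 26.2 per kb in all 5 tissues. Rps19bp1, a binding partner of Rps19 and no ribosomal subunit, had 9.64 per kb in gut, 9.63 in lung and 12.2 in skin. Rpl27 was low for a core protein, at 20.5 per kb in marrow, 13.5 in gut and 9.27 in lung. Of its 50-base windows 53% recur in other transcripts, and the part of this in its level was not tested. Among the 80 members at a mean of at least 10 in liver, the lowest was the core protein Rps15a at 12.3 per kb. Its annotated exons span 6270 bases, whereas those of Rplp1 span 499 and those of Rps3a1 977. Ranks per kb thus depend on the annotated length. The core protein Rpl10 had 18.2 per kb in liver. Rpl27, Rps19bp1 and Rps27rt, with liver means of 9.06, 8.64 and 4.42, were under that mean and not ranked.

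Reads of this length often match more than 1 gene. Of all 50-base windows in a member's annotated transcript, a median of 47.4% also occurred in transcripts of other genes. Among these were genes with pseudogene names, such as Rpl10-ps3, and other genes, such as Uimc1. The share passed 50% in 38 members and was 0 in a few, among them Rpl3l and Rps19bp1. Rpl10 and Rps12 show what follows from this. Rpl10 averaged 178.7 and 186.6 in anti-Ly6G and IgG lung, while its copy Rpl10-ps3 was assigned 581 and 594. Rps12 ran from 0.0241 to 153 among the IgG lungs alone, while its sum with its copy Rps12-ps3 ran from 317 to 532. Values of single members with close copies are uncertain by such splits.

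The members' proportions to each other varied from tissue to tissue, for most by less than a doubling. The highest share of the member sum in any tissue over the lowest had a median of 1.36 across the 80 members present in all 5, and it passed 2 in 6 of them. Rps27l, a p53-induced paralog of Rps27, took 0.874% of the sum in liver and 0.147% to 0.229% elsewhere. Rpl36al, a paralog of Rpl36a, took 1.14% in liver and 0.251% to 0.381% elsewhere. Rpl7l1 took 0.507% in liver and 0.133% to 0.222% elsewhere. Among core proteins, Rps2 took 3.59% in liver, 2.72% in skin and 1.6% in lung, and Rpl13 took 2.34% in skin against 1.17% in marrow. Rplp0 took 4.90% in skin and 2.61% in lung. Rpl41, the shortest ribosomal protein, took 2.09% in gut and 1.07% in skin. Rpl10 took 0.605% in lung and 0.163% in skin, but it is among the members with close copies.

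**Figure D2:**
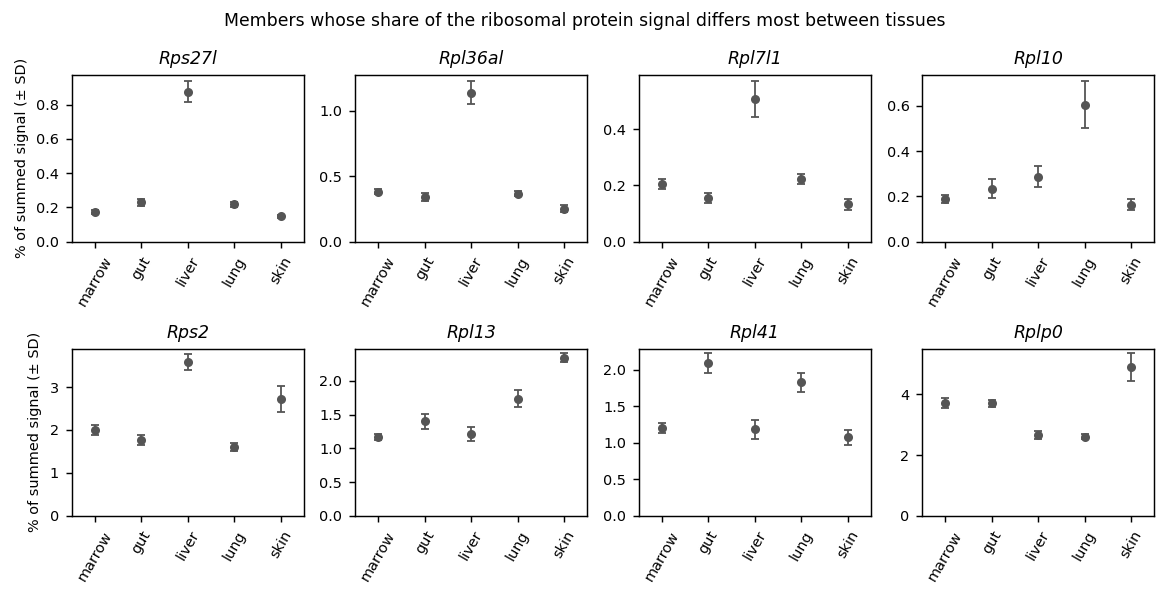
Share of the member sum (vertical axis, percent, from 0) taken by the 8 members whose share varied most between tissues, as the mean ± SD over the libraries of each tissue. Rps27l, Rpl36al and Rpl7l1 stand highest in liver, at 0.874%, 1.14% and 0.507%.

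From library to library within a tissue most members rose and fell together. Each member was correlated with the mean of the other members, across libraries and on the log2 scale. Before that, the mean of each group at each ZT, or in skin the 24 h wave of each group, was taken out. This correlation had a median of 0.94 in marrow, where 73 of 81 members passed 0.8. The median was 0.91 in lung (69 of 82), 0.90 in skin (67 of 84), 0.80 for liver (38 of 80) and 0.79 for gut (39 of 82), while between 0.0265% and 1.13% of other genes passed it. Rpl27 lay low, at 0.31 in marrow, 0.08 in gut, 0.03 in lung and 0.51 in skin. The libraries share depth, RNA quality and cell makeup, so these are descriptions of how the values moved. Counts of members above 0 or past a threshold in a comparison are therefore not counts of separate results.

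In iDTR skin many ribosomal protein mRNAs were modestly higher than in skin labelled control. The limma test of log2(value + 1), adjusted for time of day and by Benjamini-Hochberg over all genes tested, called 38 of 84 members higher and 2 lower at 0.05. Of all genes tested in skin, 30.6% were called higher and 32.4% lower in this comparison. The median difference over members was 0.08 on the log2 scale, with 67 of 84 above 0, beside −0.02 over all genes. Of the 50 members named Rpl, 27 rose and 2 fell, and of the 34 named Rps, Rps19bp1 included, 11 rose. Quantile normalization, however, gave 18 higher and 12 lower with a median of 0.004, so the count and the direction of the family rest on the scaling. Leaving out the iDTR libraries of ZT 1 and ZT 3, an alternative added after the data were seen, gave 24 higher and 6 lower.

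Rps2, of the small subunit, ran from 1261 to 1897 in iDTR skin with a median of 1603, against 1005 to 1326 with a median of 1173 in skin labelled control. The groups overlapped only at the edge, and the difference was 0.42 (SE 0.0451, adjusted p = 3.41e-11), higher at 16 of 16 times. Rpl7l1 ran from 64.6 to 91.3 with a median of 75.5 in iDTR skin, against 52.5 to 63.8 with a median of 58.0 in skin labelled control. Its groups did not overlap, and it rose by 0.39 (SE 0.0371, adjusted p = 5.34e-13). Rpl27 ran from 50.5 to 77.7 with a median of 62.7 in iDTR skin, against 40.7 to 55.9 with a median of 47.7 in skin labelled control, and rose by 0.38 (SE 0.0546, adjusted p = 4.34e-08). Its ranges overlapped, with the iDTR library higher at 15 of 16 times. Of its 50-base windows 53% recur in other transcripts.

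Rpl36al ran from 116 to 183 in iDTR skin with a median of 144, against 97.1 to 121 with a median of 112 in skin labelled control, a rise of 0.36 at 16 of 16 times. Rpl7a, of the large subunit, ran from 675 to 983 in iDTR skin with a median of 853, against 614 to 739 with a median of 668 in skin labelled control, a rise of 0.32 at 16 of 16 times. Both ranges overlapped between groups. Rpl41 rose by 0.35 and Rps19bp1 by 0.34, at 15 and 16 of 16 times. These 7 members and Rps12 were also called higher under quantile normalization, where Rps2 rose by 0.49 and Rpl7l1 by 0.35.

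Rps12 rose by 0.45 (SE 0.164, adjusted p = 0.0147), from values of 95.1 to 409.6 in iDTR skin and 74.5 to 263 in skin labelled control, which overlapped widely. With the reads given to Rps12-ps3 added, the sum was 906 ± 126 in iDTR skin and 804 ± 38.8 in skin labelled control (SD, n = 16 each). Rpl3l, the paralog of Rpl3 made in striated muscle, fell by 0.47 (SE 0.101, adjusted p = 7.98e-05). It ran from 14.7 to 30.2 with a median of 21.2 in iDTR skin, against 21.5 to 48.2 with a median of 28.6 in skin labelled control, and so overlapped. Of 8 skeletal muscle markers 7 also fell, with summed medians of 4409 in iDTR skin and 5376 in skin labelled control; the part of muscle content in the Rpl3l value was not tested. Rpl17 fell by 0.09 (adjusted p = 0.038).

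Among the P stalk proteins, Rplp2 rose by 0.15 (adjusted p = 0.0102), whereas Rplp0 differed by −0.03 and Rplp1 by 0.10 (adjusted p = 0.538 and 0.0551). Of the pair that binds Mdm2 together with 5S RNA, Rpl11 rose by 0.11 (adjusted p = 0.0352) and Rpl5 differed by 0.02 (adjusted p = 0.67). Among paralogs, Rpl22l1 rose by 0.24, while Rps27l differed by 0.03 and Rps27rt by −0.21, neither past the test. Of 15 members mutated in human Diamond-Blackfan anemia, 3 rose and none fell, beside 30.6% of all genes called higher and 32.4% lower. Among ribosomal proteins with other names, Rack1 rose by 0.20 and Fau differed by −0.11.

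**Figure D3:**
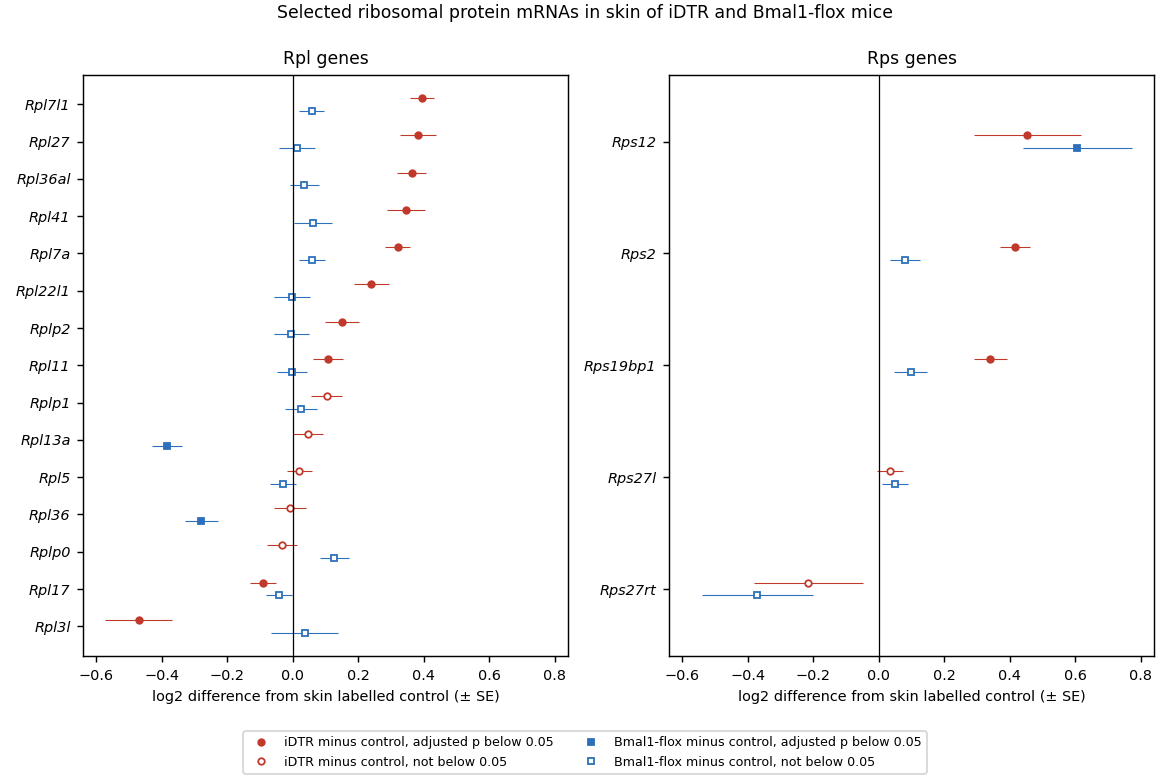
Difference from skin labelled control for 20 members named in the text (horizontal axis, log2 units ± SE), Rpl genes on the left and Rps genes on the right, with iDTR in red above Bmal1-flox in blue; filled marks passed 0.05 after adjustment. In iDTR skin Rps12, Rps2 and Rpl7l1 lie farthest right (0.45, 0.42 and 0.39) and Rpl3l farthest left (−0.47); in Bmal1-flox skin the filled marks are Rpl13a, Rpl36 and Rps12.

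The listed genes that make ribosomes had a larger median difference than the ribosomal proteins, and this contrast was not tested. All 39 listed ribosome biogenesis factors rose in iDTR skin, with a median of 0.60 on the log2 scale. Of all genes tested 30.6% were called higher and 32.4% lower. The lists in this paragraph were chosen with earlier results of these data known and were not refitted under other scalings. Nop58, of the box C/D particles that methylate rRNA, rose by 0.93, the nucleolar proteins Nolc1 and Ncl by 0.87 and 0.83, and Gnl3 by 0.84. Of 15 translation factors with TOP mRNAs, 8 rose and 2 fell, led by Npm1 at 0.68, Eef1g at 0.56 and Eef1d at 0.52. Of 78 mitochondrial ribosome genes 57 rose and 2 fell, with Mrpl12 up by 0.62. Myc, a driver of ribosome biogenesis, rose by 0.68 (adjusted p = 3.72e-08) and Larp1 by 0.35.

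Other cell markers moved in the same libraries. All 10 cell cycle markers rose, with summed medians of 753.5 in iDTR skin and 374.4 in skin labelled control. All 8 sebaceous markers fell, with summed medians of 94.3 and 1359, and all 8 adipocyte markers fell, with 311 and 590. Of 8 epidermal markers 4 rose and 1 fell, with 38000 and 29407. Of 12 neutrophil markers 9 were listed in skin, and only 3 reached the mean needed for the test. These 3 rose, and the summed medians of the list were 40.5 and 22.0. Such sums in bulk skin do not count neutrophils. The iDTR libraries of ZT 1 and ZT 3 had the highest member sums, 59649 and 62029, and the highest cell cycle sums, 1262 and 1264. The part of these cell types in the members' differences was not tested.

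In Bmal1-flox skin, compared with the same skin labelled control, 3 of 84 members differed. By limma 1 was called higher and 2 lower, beside 2.41% and 3.21% of all genes tested. Rpl13a, a 60S protein also known in human cells for silencing inflammatory mRNAs after its release from the ribosome, ran from 762 to 1092 in Bmal1-flox skin with a median of 938, against 1081 to 1312 with a median of 1214 in skin labelled control. It fell by 0.38 (SE 0.0467, adjusted p = 3.66e-08), was lower at 15 of 15 times, and the groups overlapped only between 1081 and 1092. In iDTR skin its range was 1014 to 1578. Rpl36 ran from 248 to 315 in Bmal1-flox skin with a median of 283, against 296 to 376 with a median of 336 in skin labelled control, and fell by 0.28 (SE 0.0506, adjusted p = 0.000144). It was lower at all 15 times, with a small overlap.

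Rps12 was the call upward, with 131 to 354 in Bmal1-flox skin and a median of 281, against 74.5 to 263 with a median of 197 in skin labelled control, a difference of 0.61 (SE 0.167, adjusted p = 0.0197). Its sum with Rps12-ps3 was 810 ± 58.9 in Bmal1-flox skin (n = 15) and 804 ± 38.8 in skin labelled control (n = 16, SD). That sum differed by less than the spread between mice. The median difference over members was −0.003 with 33 of 84 above 0. Leaving out any 1 library, library 1 with its liver transcripts included, gave 3 calls each time. Fitted on these 2 groups alone, 2 members were called higher and 3 lower. Of the 39 biogenesis factors 1 rose, Nhp2 at 0.29, and none of the 10 cell cycle markers passed. Erythroid markers rose in 2 of 7 tested, with summed medians of 279 in Bmal1-flox skin and 171 in skin labelled control, and sebaceous markers fell in 2 of 8. The strain of the Bmal1-flox mice and their lack of toxin cannot be told apart from the genotype.

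A daily rhythm was tested by fitting a 24 h wave to each group. In skin 9 of 84 members were rhythmic in iDTR mice and none in Bmal1-flox or labelled control, where 0 and 4 had an unadjusted p under 0.05 and limma with voom weights also gave 0. Of all genes tested 10.9%, 0.326% and 0.383% were rhythmic in these groups. The 9 peaked between 20.03 and 22.5 h. Rps2 had an amplitude of 0.16 on the log2 scale with its peak at 20.8 h (adjusted p = 0.0297), Rpl28 0.17 at 21.8 h, Rpl29 0.14 at 21.3 h and Rpl7 0.12 at 20.03 h. All 10 cell cycle markers were rhythmic in iDTR skin, with a mean peak at 21.4 h. A test of the difference in rhythm between iDTR and labelled control called no member by limma or with voom weights, beside 0.144% of all genes, although 28 had an unadjusted p under 0.05. Rpl23a came nearest (adjusted p = 0.0652); its largest wave was in labelled control, with an amplitude of 0.29 and a peak at 9.42 h (adjusted p = 0.131). Between Bmal1-flox and labelled control no member was called or had an unadjusted p under 0.05, beside 0% of all genes.

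With 1 mouse per time, single iDTR libraries, numbered within each group, decided that count of 9. It was 25 without iDTR library 1, 23 without library 8, 19 without 12, 15 without 15, 14 without 14, 5 without 9, 3 without 13, 1 without 7 and 0 without 5, 10 or 11. It was 5 without Bmal1-flox library 5, 7 or 12 or control library 5, 8, 9 or 13. Without both iDTR libraries of ZT 1 and ZT 3 it was 30, under quantile normalization 2, and without a filter or rescaled on other genes 5. The count of members whose rhythm differed was 4 without iDTR library 8, 3 without library 1, and 1 without 3, 12 or 14.

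In gut, anti-Ly6G changed no member past the test, but nearly all lay slightly higher. By limma 0 of 82 were called and 0 with voom weights, beside 0% of all genes called higher and 0.0132% lower. The median difference was 0.05 on the log2 scale with 81 of 82 above 0, beside 7533 of 15158 over all genes. Of the members 35 had an unadjusted p under 0.05, which is 42.7%, beside 12.7% of all genes. Members moved together between gut libraries, with a median correlation of 0.79, so these counts are not of separate results. Rpl35, of the large subunit near the peptide exit, ran from 139 to 206 with anti-Ly6G and a median of 172, against 125 to 183 with a median of 155 with IgG. The groups overlapped, and the difference of 0.15 was higher at 6 of 6 times (adjusted p = 0.0723). Rpl36a differed by 0.11 (adjusted p = 0.0723), and Rpl31 by 0.07 (adjusted p = 0.175). Over 10 other settings of the limma test the adjusted p of Rpl35 ran from 0.05245 to 0.654. That of Rpl36a ran from 0.05245 to 0.670. At ZT 5 all 82 members were higher with anti-Ly6G, with a median of 0.18. The member sums there were 47998 to 49712 with anti-Ly6G and 41345 to 44967 with IgG, which did not overlap; at ZT 9 they were 45148 to 51227 and 46787 to 51074. A test for an effect that differs between times called none by limma and, in its voom form, 0, beside 0% of all genes, with 7 at an unadjusted p under 0.05. The mitochondrial share at ZT 5 was 6.55% with anti-Ly6G and 5.89% with IgG, and its part in the difference was not tested. Without anti-Ly6G library 7 or IgG library 3, 2 members were called higher, and 1 without anti-Ly6G library 5. Without the anti-Ly6G libraries 1 and 6, a choice made after the data were seen, the count was 0.

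**Figure D4:**
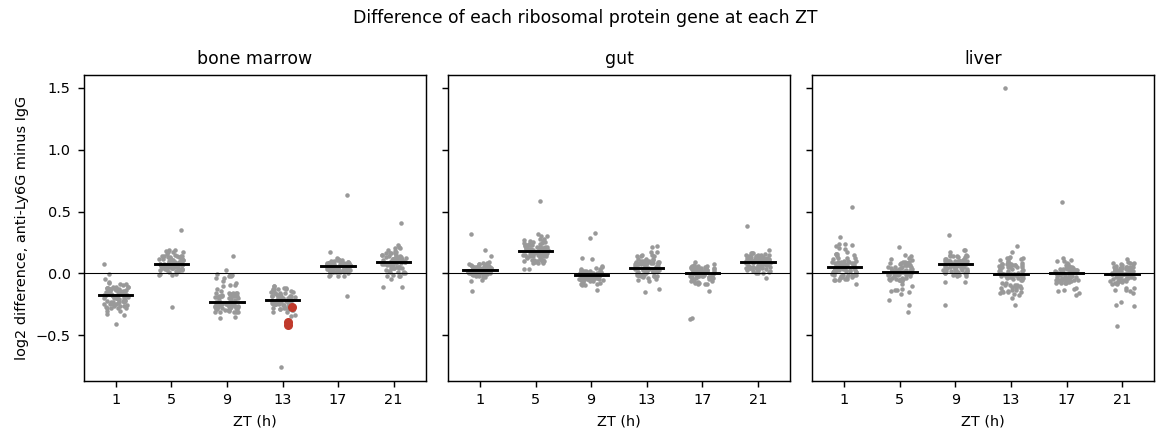
Difference of each member between anti-Ly6G and IgG (vertical axis, log2 units) at each ZT (horizontal axis, hours) in marrow, gut and liver; each point is a member, bars are medians over members, and red points passed 0.05 after adjustment. In gut the median peaked at 0.18 at ZT 5; in marrow it was −0.18, −0.23 and −0.22 at ZT 1, 9 and 13 and above 0 at the other times.

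Gut ribosomal protein mRNAs followed the time of day more often in IgG mice. With anti-Ly6G 9 of 82 were rhythmic and with IgG 49 of 82, 8 of them in both, beside 24.6% and 33.6% of all genes. The mean peaks of the rhythmic members were at 9.60 h with anti-Ly6G and 12.1 h with IgG. The median amplitudes over all members were 0.07 with anti-Ly6G and 0.10 with IgG, and 14 of 82 had the larger amplitude with anti-Ly6G. The test of the difference in rhythm itself called none by limma or with voom weights, beside 0% of all genes; 2 had an unadjusted p under 0.05, and Rps12 came nearest (adjusted p = 0.725). The different counts therefore do not show different rhythms.

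The 3 smallest p with IgG belonged to the paralogs Rpl36al, Rps27l and Rpl7l1, whose peaks lay at 15.5 to 16.1 h, after the mean of 12.1 h. Rpl36al had 126, 132 and 141 in the IgG guts of ZT 5 and 158, 172 and 184 in those of ZT 17, with an amplitude of 0.16 and a peak at 16.1 h (adjusted p = 0.00157). The libraries of those times did not overlap. Rps27l had an amplitude of 0.15 with its peak at 15.5 h and Rpl7l1 0.17 at 15.8 h, while Rpl11 had 0.13 at 12.6 h. With anti-Ly6G, Rpl18 had 521, 570 and 612 at ZT 1 and 680, 692 and 782 at ZT 13, which did not overlap, with an amplitude of 0.13 and a peak at 11.3 h (adjusted p = 0.00375). Rps9 had 0.12 at 9.61 h, Rpl17 0.10 at 10.2 h and Rpl3 0.10 at 6.93 h. Of the ribosome biogenesis list 6 of 39 were rhythmic with anti-Ly6G and 17 with IgG, and of the mitochondrial ribosome list 18 of 78 and 38, with mean peaks at 17.5 and 15.9 h. All 10 cell cycle markers were rhythmic in both, with mean peaks at 23.9 and 0.214 h.

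These gut counts moved with few libraries and with the scaling. With anti-Ly6G the count of 9 was 21 without anti-Ly6G library 16, 20 without 10, 18 without 7, 14 without 11 and 5 without 17. It was 4 without ZT 1 or ZT 13, 39 without ZT 21, 36 with ZT as a factor, 16 when rescaled on other genes, 6 without both libraries 1 and 6, and 4 under quantile normalization. With IgG the count of 49 was 16 without IgG library 2, 21 without 1, 25 without 18 and 28 without 16. Leaving out ZT 1, 5, 9 or 13 gave 14, 24, 8 and 21, and quantile normalization gave 9.

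In liver no member passed the test between anti-Ly6G and IgG: limma called 0 of 80, and 0 with voom weights, beside 0.776% of all genes called higher and 0.624% lower, and 2 had an unadjusted p under 0.05, beside 13.6% of all genes. The median difference was 0.02 with 62 of 80 above 0. Rps18 came nearest, with 190.6 to 256 and a median of 204 with anti-Ly6G against 166 to 229.7 and a median of 194 with IgG, which overlapped (difference 0.07, adjusted p = 0.339). Rpl21 differed by 0.06 (adjusted p = 0.34) and Rpl22l1 by −0.13 (adjusted p = 0.381). An effect that differs between times was called for none by limma or with voom weights, beside 0.024% of all genes, with 1 at an unadjusted p under 0.05; Rpl7l1 came nearest (adjusted p = 0.336).

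In liver some members followed the time of day, as many other genes did. With anti-Ly6G 18 of 80 were rhythmic and with IgG 43, 13 in both. That was 22.5% and 53.8%, beside 34.7% and 42.9% of all genes, so the share was under that of all genes with anti-Ly6G and not far above it with IgG. Rpl7l1 led in both groups. With anti-Ly6G it had 51.8, 54.6 and 55.3 at ZT 5 and 77.3, 80.3 and 87.6 at ZT 13, an amplitude of 0.24 or 1.39-fold from trough to peak, with the peak at 15.8 h (adjusted p = 0.000413). With IgG it had 48.4, 48.7 and 51.1 at ZT 5 and 78.8, 81 and 83.3 at ZT 17, an amplitude of 0.32 or 1.57-fold, with the peak at 17.5 h (adjusted p = 3.04e-06). In neither group did the libraries of those times overlap.

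With IgG, Rps27l had an amplitude of 0.19 with its peak at 18.0 h (adjusted p = 0.000219), Rpl36al 0.19 at 17.7 h and Rps18 0.15 at 16.0 h. With anti-Ly6G, Rps6, the substrate of the S6 kinases, had 0.12 at 13.98 h (adjusted p = 0.000998) and Rps3a1 had 0.11 at 14.1 h. The mean peaks of the rhythmic members were at 15.3 h with anti-Ly6G and 16.7 h with IgG, in the dark phase in which mice feed. The median amplitude was 0.09 with anti-Ly6G and 0.11 with IgG. A test of the difference in rhythm called none by limma or with voom weights, beside 0.008% of all genes, and none had an unadjusted p under 0.05; Rpl7l1 came nearest (adjusted p = 0.567).

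Of the biogenesis list in liver, 27 of 39 were rhythmic with anti-Ly6G and 25 with IgG, which was 69.2% and 64.1%, with mean peaks at 12.8 and 15.8 h. The difference from the members' shares was not tested. Of the mitochondrial ribosome list 19 of 78 and 35 were rhythmic. Between tissues, 29 members were rhythmic in IgG gut and in IgG liver, which was 59.2% of the gut set and 67.4% of the liver set. These lie near the shares of all tested members that were rhythmic, 53.8% in IgG liver and 59.8% in IgG gut. In liver with IgG, Rps12 gave an amplitude of 0.66 with a peak at 0.27 h (adjusted p = 0.0219), against the hour of the other members. Among those livers Rps12 ran from 6.55 to 106 and its sum with Rps12-ps3 from 122 to 159.7. The liver counts also moved: with anti-Ly6G the 18 became 10 without anti-Ly6G library 6, 10 or 14, 7, 6 and 10 without ZT 5, 13 and 17, 10 with ZT as a factor and 6 under quantile normalization. With IgG the 43 became 24 without IgG library 14, 16 and 10 without ZT 13 and 17 and 20 under quantile normalization.

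**Figure D5:**
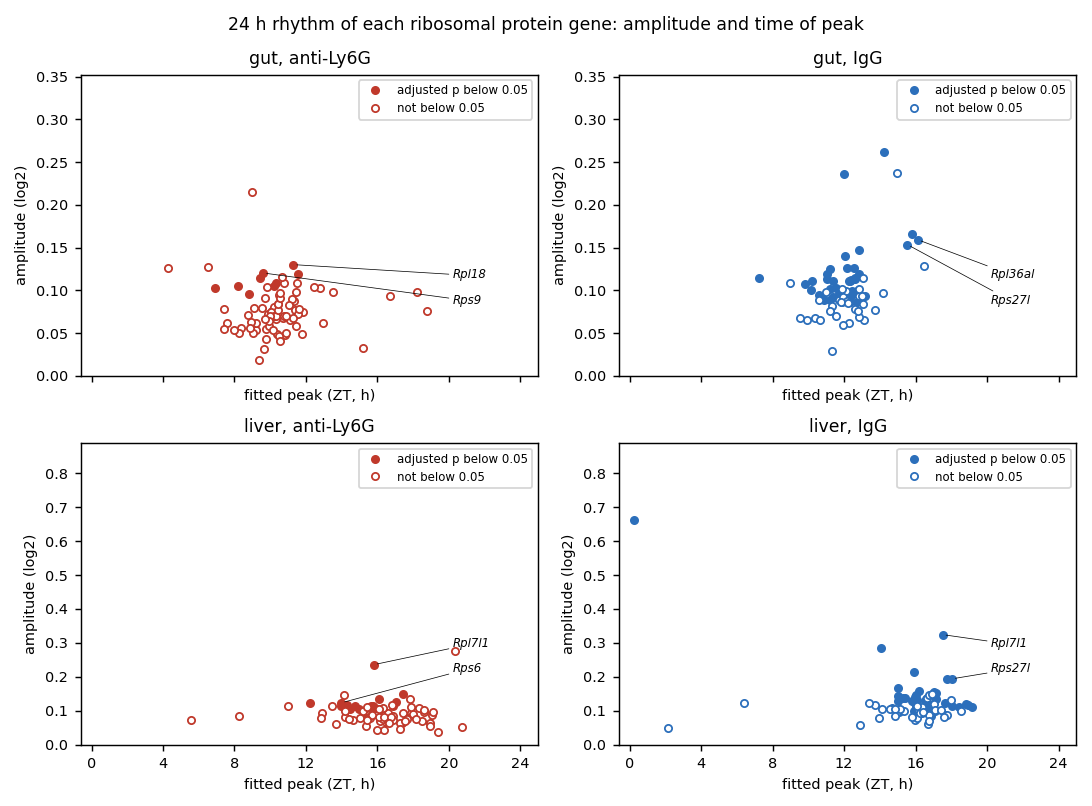
Hour of the fitted peak (horizontal axis, ZT in hours) and amplitude (vertical axis, log2 units) of each member in gut and liver, anti-Ly6G left of IgG; filled points passed 0.05 after adjustment. With IgG in liver, 43 of 80 passed around a mean of 16.7 h, Rpl7l1 stands out at an amplitude of 0.32, and the lone point at 0.27 h and 0.66 is Rps12.

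In bone marrow 2 of 81 members fell with anti-Ly6G and none rose by limma or with voom weights, beside 9.95% of all genes called higher and 7.16% lower, with 12 members, or 14.8%, at an unadjusted p under 0.05, beside 30.6% of all genes. Rpl27 ran from 23.3 to 38.9 with anti-Ly6G and a median of 28.0, against 25.6 to 39.9 with a median of 34.8 with IgG. The ranges overlapped, and it fell by 0.24 (SE 0.0483, adjusted p = 0.000706) and was lower at 6 of 6 times. Of its 50-base windows 53% recur in other transcripts, and its correlation with the other members in marrow was only 0.31. Rps27l ran from 61.0 to 90.3 with anti-Ly6G and a median of 72.8, against 67.8 to 105 with a median of 81.6 with IgG. It fell by 0.15 (SE 0.0517, adjusted p = 0.0367), lower at 4 of 6 times, with wide overlap. The median difference over members was −0.07 with 5 of 81 above 0, beside −0.004 over all genes.

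The median was below 0 at some times and slightly above 0 at others. It was −0.18 at ZT 1, −0.23 at ZT 9 and −0.22 at ZT 13, with 1, 2 and 0 of 81 members above 0, and 0.07, 0.06 and 0.09 at ZT 5, 17 and 21, with 76, 76 and 74 above 0. The 3 values above 0 came near 0 without single libraries, and only at ZT 5 did the sign change. At ZT 5 the median was −0.03 without anti-Ly6G library 6 and 0.01 without IgG library 6, with 22 and 48 of 81 above 0. At ZT 17 it was 0.0001 without anti-Ly6G library 13 and 0.03 without IgG library 13, and at ZT 21 it was 0.02 without IgG library 17. At ZT 1, 9 and 13 it stayed between −0.30 and −0.11 without any 1 library. These values without a library were added after the data were seen. At ZT 13 the member sums were 39366, 39543 and 40228 with anti-Ly6G and 43661, 45663 and 49034 with IgG, and did not overlap. There 3 of 81 members were lower after adjustment, beside 6.15% of all genes in either direction. Rpl36 had 141, 149 and 153 with anti-Ly6G and 180, 188 and 217 with IgG at ZT 13, a fall of 0.39 (adjusted p = 0.0276). Rpl41 had 411, 416 and 459 against 524, 584 and 607, a fall of 0.42 (adjusted p = 0.0497), and Rpl28 had 428, 471 and 478 against 519, 542 and 604, a fall of 0.27 (adjusted p = 0.0459). None of the 3 overlapped at that time. The test that the effect differs between times called none by limma or with voom weights, beside 0.021% of all genes, with 38 at an unadjusted p under 0.05 and Rpl36 nearest (adjusted p = 0.289).

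Cell markers also differed in marrow. Of 12 erythroid markers 8 fell, with summed medians of 95294 with anti-Ly6G (54619 to 131958) and 113802 with IgG (93646 to 138707), and at ZT 13 their sums averaged 74163 with anti-Ly6G and 111780 with IgG. At ZT 17 and 21, where the members' medians were above 0, the erythroid sums averaged 98410 and 91719 with anti-Ly6G, below 117426 and 105511 with IgG. At ZT 5, where the members' median was also above 0, they were 98825, 127119 and 131958 with anti-Ly6G. With IgG they were 110590, 117582 and 125636 at that time. At ZT 1 they ran from 79157 to 96537 with anti-Ly6G and from 93646 to 138707 with IgG. At ZT 9 they ran from 84447.5 to 101031 and from 100910 to 117795. Of 11 B cell markers 9 fell, with summed medians of 804.6 and 900.3, and of 12 neutrophil markers 6 rose, with 31595 and 27920. Their part in the members' differences was not tested. Of the 39 biogenesis factors 12 fell, among them Nop58 by 0.16 and Ncl, Nhp2 and Gnl3 by 0.15 each, and of 15 TOP translation factors 4 fell, with Npm1 by 0.19, Hnrnpa1 by 0.15 and Eef1d by 0.11. Of 78 mitochondrial ribosome genes 10 fell and 1 rose. Myc rose by 0.26 (adjusted p = 2.01e-05) and Larp1 by 0.11 (adjusted p = 0.00501), while Rack1 at −0.05 and Fau at 0.02 did not pass.

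The marrow count was unstable. It was 13 without anti-Ly6G library 6, 6 without anti-Ly6G library 13 or IgG library 6 or 17, and 1 without anti-Ly6G library 1, 2, 5, 7, 8, 10 or 14 or IgG library 1, 3, 8, 9, 10 or 11. Leaving out ZT 5 gave 14, ZT 17 gave 4 and ZT 1, 9 or 13 gave 1, and quantile normalization gave 10, all of them lower. No member was rhythmic in marrow by limma or with voom weights, beside 0.406% of all genes with anti-Ly6G and 1.62% with IgG; 0 and 5 had an unadjusted p under 0.05. With anti-Ly6G, Rpl27, Rpl7l1, Rps2 and Rpl36 came nearest (smallest adjusted p = 0.4), and with IgG, Rps28, Rpl27, Rpl23 and Rpl36a (smallest adjusted p = 0.195). With anti-Ly6G 18 members were rhythmic without ZT 1 and 1 with ZT as a factor. A difference in rhythm was called for none, beside 0.007% of all genes, with 1 at an unadjusted p under 0.05, Rpl10 (adjusted p = 0.9995), and voom weights also gave 0.

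In lung, as labelled, no member passed the test between anti-Ly6G and IgG. Limma called 0 of 82, as it did with voom weights, beside 0% of all genes in either direction, and none had an unadjusted p under 0.05. The median difference was −0.02 with 24 of 82 above 0. Rpl7 differed by −0.06, Rps4x by −0.05 and Rps19bp1 by 0.08 (adjusted p = 0.628, 0.636 and 0.687). With anti-Ly6G 1 member was rhythmic, Rpl3, with an amplitude of 0.13 and a peak at 0.815 h (adjusted p = 0.00865), beside 12.7% of all genes. With IgG 7 were, beside 11.2%, among them Rpl3 at 4.35 h (0.12), Rplp2 at 2.77 h (0.20), Rps16 at 3.01 h (0.15) and Rpl36 at 2.88 h (0.18). Rpl13a, Rps16 and Rpsa came next with anti-Ly6G (adjusted p = 0.0505, 0.0775 and 0.0794).

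These lung hours are those of the labels, at odds with Dbp and Arntl, and the counts rest on few libraries. With IgG the 7 became 16 without IgG library 12, 4 without 6, 2 without 3 and 1 without 10, 11 or 13, and 1, 0, 1, 0 and 2 without ZT 1, 5, 13, 17 and 21. With anti-Ly6G the 1 became 5 without anti-Ly6G library 6, 3 without IgG library 11, and 2 without anti-Ly6G library 1, 10, 13 or 16 or IgG library 9, 10, 12, 13, 14 or 17. The test of a difference in rhythm called none by limma or with voom weights, beside 0.0511% of all genes, with 1 at an unadjusted p under 0.05 (Rpl3, adjusted p = 0.408). An effect that differs between labelled times was called for none by either, beside 1.11% of all genes, with 1 at an unadjusted p under 0.05 (Rpl13, adjusted p = 0.306), and for 1 without IgG library 12.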

How the data were processed

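Total RNA (200 ng) was sequenced as 50-nucleotide single reads, per the labels' protocols. Per the submitters' processing notes, CASAVA 1.8, cutadapt 1.7.1, RSEM and limma 3.46 were used with mm10; the protocol names RSEM 1.2.20 and Kallisto 0.43.1 on Ensembl 84. The deposited values are a linear normalized signal from the authors, RSEM estimates over a scaled library size, summing to about 1e6 in a library; at most 46.4% of them came out as whole reads within 0.01, so no count test was run. Depth was read from the steps of these values.

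Here limma 3.58.1 (R 4.3.3) was run per tissue on log2(value + 1) of genes with a mean of at least 1, with a mean-variance trend, two-sided, Benjamini-Hochberg over all genes of the tissue, at 0.05. The antibody tissues had ZT as a factor in the fit and skin a 24 h wave; rhythm was the F test of the wave in a group. An amplitude is the distance from the mean of the wave to its peak on the log2 scale. Lengths and shared 50-base windows came from GENCODE M21. Scripts were tested on simulated data. Nothing says more than that each library is a mouse, so p-values measure the spread between these libraries.

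Members and lists were chosen with earlier results of these data known. Named members were, per comparison, all that passed if at most 12, else the 8 largest rises and 8 largest falls; where none passed, the 3 with the smallest p; the 4 smallest p per rhythm; the smallest per difference test; and the extremes of level and share. Libraries are numbered within a group in accession order. Other scalings, filters, pseudocounts, weights and left-out libraries and times were tried. Some single members and related genes are not reported here.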

Additional observations from a re-analysis of the deposited data

How the results depend on the processing

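Among counts, those of members passing the rule and of extremes per kb included, 251 recomputed values stayed near the main count. The other 45 moved further, or to or from 0. This label follows the size of a count and not its direction. For named members 527 values stayed, 6 gained and 7 lost a call, and no difference changed sign. All 13 changes were rhythm amplitudes, and their cause was not tested. Under quantile normalization the calls were 10 in marrow, and the rhythmic members 4 (anti-Ly6G) and 9 (IgG) in gut, 6 and 20 in liver, 6 (anti-Ly6G) in lung and 2 in iDTR skin; that scaling also turned the 38 higher and 2 lower of iDTR skin into 18 and 12. Rescaled on other genes, rhythmic counts were 16 in anti-Ly6G gut, 2 in anti-Ly6G lung and 5 in iDTR skin. No filter gave 5 in iDTR skin; a mean of at least 4 and voom weights each gave 2 in anti-Ly6G lung. With ZT as a factor, rhythmic counts with anti-Ly6G were 1 in marrow, 36 in gut, 10 in liver and 0 in lung, and 0 in IgG lung. Bmal1-flox fitted with labelled control alone gave 5 calls. Without the iDTR libraries of ZT 1 and ZT 3, added after the data were seen, 30 members were rhythmic in iDTR skin.

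Without a time, marrow calls were 1 (ZT 1, 9 or 13), 14 (ZT 5) and 4 (ZT 17), and rhythmic counts were 18 in anti-Ly6G marrow (ZT 1); 4, 4 and 39 in anti-Ly6G gut (ZT 1, 13, 21); 14, 24, 8 and 21 in IgG gut (ZT 1, 5, 9, 13); 7, 6 and 10 in anti-Ly6G liver (ZT 5, 13, 17); 16 and 10 in IgG liver (ZT 13, 17); 0 and 3 in anti-Ly6G lung (ZT 1, 13); and 1, 0, 1, 0 and 2 in IgG lung (ZT 1, 5, 13, 17, 21). Without each library in turn, calls ranged from 1 to 13 in marrow, 0 to 2 in gut, 33 to 44 in iDTR skin and 3 to 3 in Bmal1-flox skin. Rhythmic counts ranged from 5 to 21 and 16 to 58 in anti-Ly6G and IgG gut, 10 to 27 and 24 to 57 in liver, 1 to 5 and 1 to 16 in lung, and 0 to 25 in iDTR skin. Members whose rhythm differed in iDTR skin ranged from 0 to 4, and those with a lung effect that differs by ZT from 0 to 1.

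Replicate numbers of gut share only a number within a ZT, whereas in skin the number stands for the ZT. Of 18 gut pairs 6 correlated over 0.1, and of 16 iDTR and 15 Bmal1-flox pairs 4 and 4. With a replicate block, which in skin is a block of time, the calls were unchanged. They were 0 in gut, 40 in iDTR skin and 3 in Bmal1-flox skin. A read was worth at most 0.131 units, which bounds the precision of members with values near 10, such as Rps19bp1.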

Other observations

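For some members the tables also list close copies elsewhere in the genome, to which part of the reads was assigned. In skin Rpl10 and Rpl10-ps3 together averaged 787 ± 75.3 in iDTR, 701 ± 36.3 in Bmal1-flox and 706 ± 35.2 in labelled control (SD, n = 16, 15 and 16). In marrow Rpl41 and its copy Gm10076 together averaged 662 ± 97.7 with anti-Ly6G and 714 ± 75.6 with IgG (SD, n = 18 each), and Rpl13a and Gm45713 together 1175 ± 149 and 1250 ± 97.6.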
